A study of Mus musculus with 6 samples.

Results

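Amino acid transporter genes were followed in B16F10 cells, an established melanoma line of mouse origin, 8 h after exposure to rPPAA18C6@Dox or PBS. The members are the rows of the deposited expression table whose symbols belong to the solute carrier families Slc1a, Slc3a, Slc6a, Slc7a, Slc36a, Slc38a and Slc43a, with Slc7a11 set aside, matched by symbol; the families were picked with earlier results of these data known. The rule matched 34 of the 15726 genes, of which 31 are transporters or their partner subunits and 3 (Slc7a6os, Slc36a1os and Slc36a3os) are neighbouring genes named for lying on the opposite strand. The rPPAA18C6@Dox group holds 3 libraries from cells given 50 μg/mL of a preparation that the labels name only by this code, and the PBS group holds 3 libraries from cells given PBS. No library with a single component of it was analysed here. Separate cultures are not stated for the 3 libraries of either group, so the p-values here reflect library-to-library spread that may be technical.

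Amino acids and related small molecules cross membranes on carriers that differ in substrate and in driving force. Slc1a4 and Slc1a5, the only Slc1 carriers matched here, and many Slc38 carriers are sodium-dependent and handle small neutral amino acids and glutamine. Many Slc6 carriers use sodium and chloride, and the family includes those for taurine, creatine and glycine. Slc7 proteins carry cationic amino acids on their own, or carry large neutral amino acids as light chains bound to the heavy chain Slc3a2 (CD98). Several Slc36 carriers are driven by protons, and Slc43 carriers let large neutral amino acids pass down their gradient. In melanoma cells the import of glutamine and leucine feeds growth, and tyrosine and phenylalanine are the source of melanin.

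Of the 24 matched genes that reached the filter described below, 5 passed the test. Slc6a17, Slc6a8, Slc38a1 and Slc7a5 rose, and Slc6a6 fell. These 5 were 20.8% of the tested members, beside 9.93% of all 10680 tested genes. The call of Slc7a5 held in only 3 of 13 alternative fits. By direction, 4 members rose (4.66% of all tested genes did) and 1 fell (5.26% of all tested genes did). The Slc6a family held 3 of the 5, out of 5 members tested, the Slc38a family 1 of 7 and the Slc7a family 1 of 6, and none of the tested Slc1a (2), Slc36a (2), Slc3a (1) or Slc43a (1) members passed. The changes were small, from a ratio of group means of 1.07 for Slc7a5 to 1.36 for Slc6a17, and 9 of the 24 estimates were above 0 and 15 below it, beside 4642 above and 6038 below over all tested genes. The median estimate was -0.02 on the log2 scale, beside -0.01 over all genes tested.

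Values are read as FPKM (fragments scaled by gene length and by sequencing depth), a unit inferred from the deposited numbers because the header names none. The columns P1 to P3 were taken as rPPAA18C6@Dox by elimination and number, since their names do not state the treatment, and each direction below rests on that assignment. Errors are the SD over n = 3 libraries a group. Genes with a group mean of at least 1 FPKM in one or both groups were tested, with limma on log2(FPKM + 1), two-sided, and adjusted p is Benjamini-Hochberg adjusted over all tested genes, with a threshold of 0.05. Fold changes are rPPAA18C6@Dox minus PBS on that scale, on which low genes show less than their full change. The library totals recovered from the steps in the values were 36380462 to 37067116 reads. The mean chi-square per gene was 2.39 to 4.33 for pairs of libraries within a group, above the 1 that sampling noise gives, and 9.76 to 13.2 for pairs between groups. All 10 melanoma markers had a row, 9 of them at 1 FPKM or more (Oca2 was under the filter), with a summed level of 7389 to 7422 FPKM with rPPAA18C6@Dox and 6304 to 6391 FPKM with PBS, and 7 of the 9 rose. Of the markers of other cells, 3 of 8 immune, 5 of 7 fibroblast and 3 of 8 epithelial and endothelial genes had a row. Their summed levels were 2.19 to 2.64 FPKM with rPPAA18C6@Dox and 2.17 to 2.55 FPKM with PBS for the immune list, 3.70 to 4.07 FPKM with rPPAA18C6@Dox and 4.24 to 4.35 FPKM with PBS for the fibroblast list, and 4.95 to 5.13 FPKM with rPPAA18C6@Dox and 3.07 to 3.38 FPKM with PBS for the epithelial and endothelial list. Within these lists Vwf, an endothelial gene, rose, at 3.39, 3.42 and 3.16 FPKM in the rPPAA18C6@Dox libraries, against 1.30, 1.63 and 1.56 FPKM in the PBS libraries (log2 fold change 0.79, SE 0.0635, adjusted p = 5.91e-05), and so did Cd68, a macrophage gene (1.66 ± 0.0551 FPKM with rPPAA18C6@Dox and 1.27 ± 0.0623 FPKM with PBS, log2 fold change 0.23, SE 0.0564, adjusted p = 0.0311), and the other 3 tested genes did not pass. The call of Cd68 held in only 4 of its 12 alternatives. It held in no fit with 1 library left out (adjusted p = 0.0553 to 0.096, limma). None of the genes of these lists with a row was at 0 in every library. The part of these shifts in the transporter results was not tested, and in bulk RNA fewer cells of a type and less RNA per cell cannot be told apart.

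**Figure D1:**
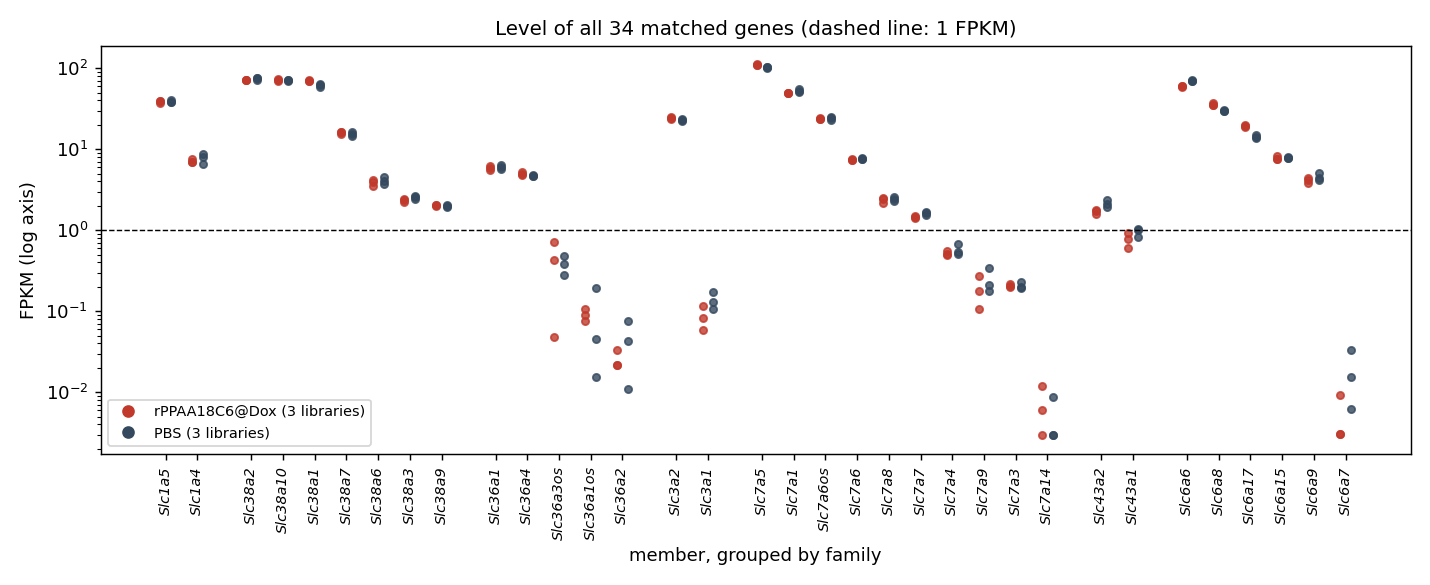
Each matched gene is a column, grouped by family, with 1 point per library (red rPPAA18C6@Dox, left; dark PBS, right) in FPKM on a log axis. Of the 34 genes 24 lie above the dashed line at 1 FPKM in at least 1 group mean, and Slc7a5 is the highest, at 109.6 FPKM with rPPAA18C6@Dox and 102 FPKM with PBS.

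A few genes made up most of the measured transporter RNA. The 8 highest transporters (Slc7a5, Slc38a2, Slc38a10, Slc38a1, Slc6a6, Slc7a1, Slc1a5 and Slc6a8) gave 81.8% ± 0.215 of the summed FPKM of the 31 transporters with rPPAA18C6@Dox and 82.2% ± 0.0847 with PBS. Summed over each family, a level per length and not a test, the Slc38a genes stood at 238 ± 2.85 FPKM with rPPAA18C6@Dox and 231 ± 6.39 FPKM with PBS, the highest of the 7 families. The Slc7a genes summed to 171 ± 1.83 FPKM with rPPAA18C6@Dox and 168 ± 4.60 FPKM with PBS. The Slc6a genes summed to 127 ± 2.56 FPKM with rPPAA18C6@Dox and 127 ± 1.43 FPKM with PBS, although 3 of its members passed the test, 2 higher and 1 lower. The Slc1a sum was 45.8 ± 1.11 FPKM with rPPAA18C6@Dox and 46.8 ± 1.84 FPKM with PBS, the Slc3a sum 24.4 ± 0.828 FPKM with rPPAA18C6@Dox and 23.2 ± 0.474 FPKM with PBS, and the Slc36a sum 10.9 ± 0.56 FPKM with rPPAA18C6@Dox and 10.8 ± 0.382 FPKM with PBS. Slc43a was lowest, at 2.48 ± 0.253 FPKM with rPPAA18C6@Dox and 3.09 ± 0.267 FPKM with PBS. All 31 together summed to 619.7 ± 8.08 FPKM with rPPAA18C6@Dox and 609.7 ± 14.00 FPKM with PBS, and the libraries of the groups overlapped.

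In the Slc6 family Slc6a17 and Slc6a8 rose and Slc6a6 fell. Slc6a17, which loads neutral amino acids into synaptic vesicles of neurons, was at 19.9, 19.5 and 18.9 FPKM in the rPPAA18C6@Dox libraries, against 13.8, 14.1 and 14.9 FPKM in the PBS libraries. Every rPPAA18C6@Dox library was above every PBS library, and the rise was the largest of any member (log2 fold change 0.42, SE 0.0367, adjusted p = 9.55e-05). Slc6a17 was 1 of 2 tested members whose group means differed at least 1.2-fold, as did 5.63% of all tested genes. The other, Slc43a2, is described further on and did not pass. Slc6a15, the closest relative of Slc6a17 and a sodium-dependent carrier of branched-chain amino acids and proline, was at 7.64, 8.18 and 7.61 FPKM in the rPPAA18C6@Dox libraries, against 7.88, 7.81 and 7.94 FPKM in the PBS libraries. These libraries overlapped (log2 fold change -0.01, SE 0.0393, adjusted p = 0.892) and the sign of the estimate was not stable, turning positive with quantile normalization and without rPPAA18C6@Dox replicate 1 or 3.

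The promoter windows of Slc6a17 are shown because it is the only gene of the 5 with an entry in the RefSeq table used (build GRCm38.p6), which lists 2 starts for it. Each window runs from 250 bases before to 50 after a start, 5′ to 3′ on the strand of the gene.
Slc6a17 (chr3:107500691-107500990, minus strand): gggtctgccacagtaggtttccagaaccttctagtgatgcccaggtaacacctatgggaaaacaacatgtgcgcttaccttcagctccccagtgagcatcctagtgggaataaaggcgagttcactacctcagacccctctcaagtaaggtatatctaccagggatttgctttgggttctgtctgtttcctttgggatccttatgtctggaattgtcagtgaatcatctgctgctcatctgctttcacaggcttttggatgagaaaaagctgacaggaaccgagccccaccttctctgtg
Slc6a17 (chr3:107517969-107518268, minus strand): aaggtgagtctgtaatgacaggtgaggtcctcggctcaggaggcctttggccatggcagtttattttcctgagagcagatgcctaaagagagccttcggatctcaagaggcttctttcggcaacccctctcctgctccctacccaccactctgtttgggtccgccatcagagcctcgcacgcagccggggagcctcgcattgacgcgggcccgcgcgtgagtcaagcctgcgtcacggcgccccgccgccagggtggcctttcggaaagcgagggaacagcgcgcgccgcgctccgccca
The windows were searched on both strands for CACGTG (the E-box letters read by MITF, TFEB and MYC among others), TCATGTG (a further form of the MITF site), TGACGTCA (the cyclic AMP response element) and TGATGNAA (letters of the composite site read by ATF4 and C/EBP factors). Neither window of Slc6a17 holds any of them, so no base is in capitals. Among all 32851 windows of this length, 7.15% hold CACGTG, 3.77% TCATGTG, 1.79% TGACGTCA and 3.97% TGATGNAA. Of the 24 tested members 17 had at least 1 window, 27 windows in all, and 2 genes held CACGTG, 1 TCATGTG, 1 TGACGTCA and 2 TGATGNAA. These are counts of genes, some with several windows, and cannot be set directly against the shares of windows. A match to letters is a description and not a bound site.

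Slc6a8, the creatine carrier, was at 35.5, 36.7 and 35.2 FPKM in the rPPAA18C6@Dox libraries, against 30.4, 30.04 and 29.6 FPKM in the PBS libraries. The groups did not overlap, and the gene rose (log2 fold change 0.25, SE 0.0277, adjusted p = 0.000586). Slc6a6, which imports taurine, an organic osmolyte, was at 60.3, 60.6 and 57.9 FPKM in the rPPAA18C6@Dox libraries, against 68.8, 71.4 and 69.2 FPKM in the PBS libraries. It was the only member that fell (log2 fold change -0.22, SE 0.0278, adjusted p = 0.00113), and again the groups did not overlap. Because both values come from the same library, their ratio is free of its depth: Slc6a8 over Slc6a6 was 0.588, 0.605 and 0.608 in the rPPAA18C6@Dox libraries and 0.442, 0.421 and 0.428 in the PBS libraries. This ratio was chosen after the values were seen and is given without a test. Slc6a9, a glycine carrier, was at 4.14 ± 0.275 FPKM with rPPAA18C6@Dox and 4.56 ± 0.455 FPKM with PBS and did not pass (log2 fold change -0.11, SE 0.0652, adjusted p = 0.311). Exons of Slc6a9 share 27.8% of their bases with Ccdc24 on the other strand in GENCODE vM21, and how the counting treated strand is not given in the sources used here.

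**Figure D2:**
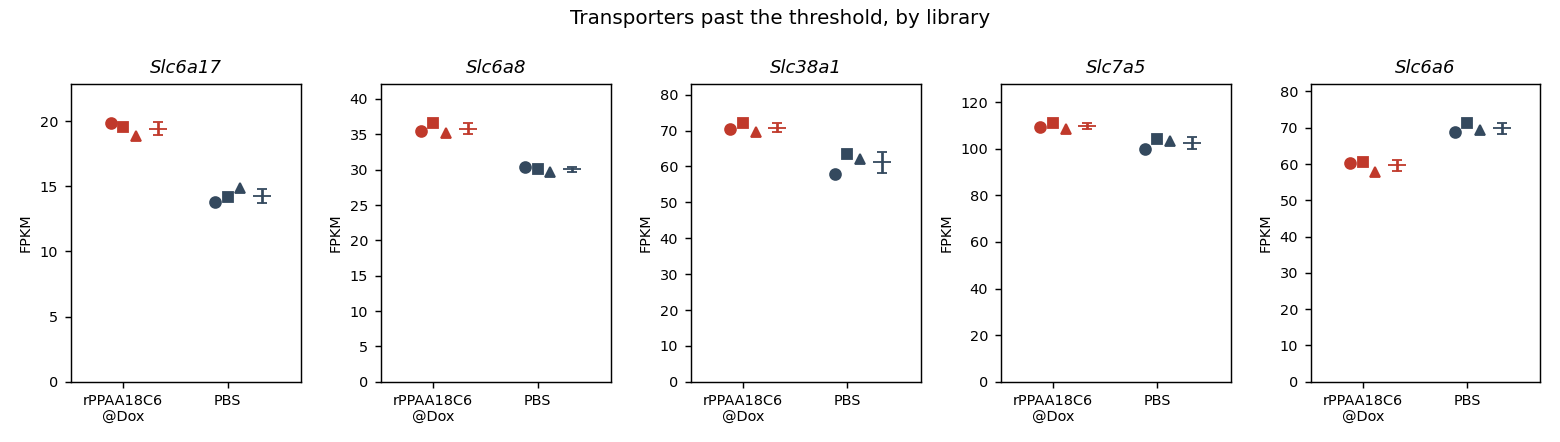
Each panel is 1 gene past the threshold, with FPKM on an axis from 0, the 3 rPPAA18C6@Dox libraries on the left (red) and the 3 PBS libraries on the right (dark). Marker shapes are replicates 1 to 3 and the bars beside them mean ± SD. In each of the 5 genes the groups do not overlap, with Slc6a6 the one that is lower with rPPAA18C6@Dox.

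Among the sodium-coupled neutral carriers, Slc38a1 rose and its close relatives did not pass. Slc38a1, which takes up glutamine and alanine, was at 70.5, 72.2 and 69.7 FPKM in the rPPAA18C6@Dox libraries, against 57.9, 63.6 and 62.1 FPKM in the PBS libraries. All rPPAA18C6@Dox libraries lay above all PBS libraries (log2 fold change 0.21, SE 0.0352, adjusted p = 0.00594). PBS replicate 1 was the lowest, and without it the log2 fold change was 0.17 with an adjusted p of 0.0115. Slc38a2, a carrier of the same transport system that amino acid starvation is known to induce, was at 70.6, 71.00 and 71.6 FPKM in the rPPAA18C6@Dox libraries, against 72.4, 75.1 and 75.8 FPKM in the PBS libraries. Here every rPPAA18C6@Dox library lay below every PBS library, but the difference missed the threshold (log2 fold change -0.07, SE 0.0256, adjusted p = 0.136; 95% interval -0.12 to -0.01). The ratio of Slc38a1 to Slc38a2, also chosen after the values were seen, was 0.998, 1.02 and 0.973 in the rPPAA18C6@Dox libraries and 0.799, 0.846 and 0.82 in the PBS libraries.

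Slc38a10, a broadly expressed member, was at 72.8, 72.5 and 70.2 FPKM in the rPPAA18C6@Dox libraries, against 70.1, 72.5 and 72.1 FPKM in the PBS libraries. Its libraries overlapped (log2 fold change 0.01, SE 0.0259, adjusted p = 0.919; 95% interval -0.05 to 0.06), and the sign turns with quantile normalization and in 3 of the 6 fits with 1 library left out. Slc38a3, a glutamine carrier of liver and kidney, and Slc38a6 were at 2.34 and 3.87 FPKM with rPPAA18C6@Dox and at 2.56 and 4.11 FPKM with PBS, and neither passed (adjusted p = 0.304 and 0.55, limma). Slc1a5, the main glutamine exchanger of many tumour cells, was at 38.9, 39.6 and 37.6 FPKM in the rPPAA18C6@Dox libraries, against 38.5, 38.7 and 40.01 FPKM in the PBS libraries. The groups overlapped and the estimate lay near 0 (log2 fold change -0.01, SE 0.0295, adjusted p = 0.827; 95% interval -0.08 to 0.05), with a sign that turns with quantile normalization and without rPPAA18C6@Dox replicate 3 or PBS replicate 3. Slc1a4, which exchanges serine and alanine, was at 7.12 ± 0.327 FPKM with rPPAA18C6@Dox and 7.77 ± 1.13 FPKM with PBS, and its largest spread came from PBS replicate 1 at 6.52 FPKM, below the other PBS libraries at 8.10 and 8.70 FPKM. It did not pass (log2 fold change -0.10, SE 0.0809, adjusted p = 0.452), though without PBS replicate 1 it did (-0.21, adjusted p = 0.0469, range over its 13 alternatives 0.0469 to 0.867).

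**Figure D3:**
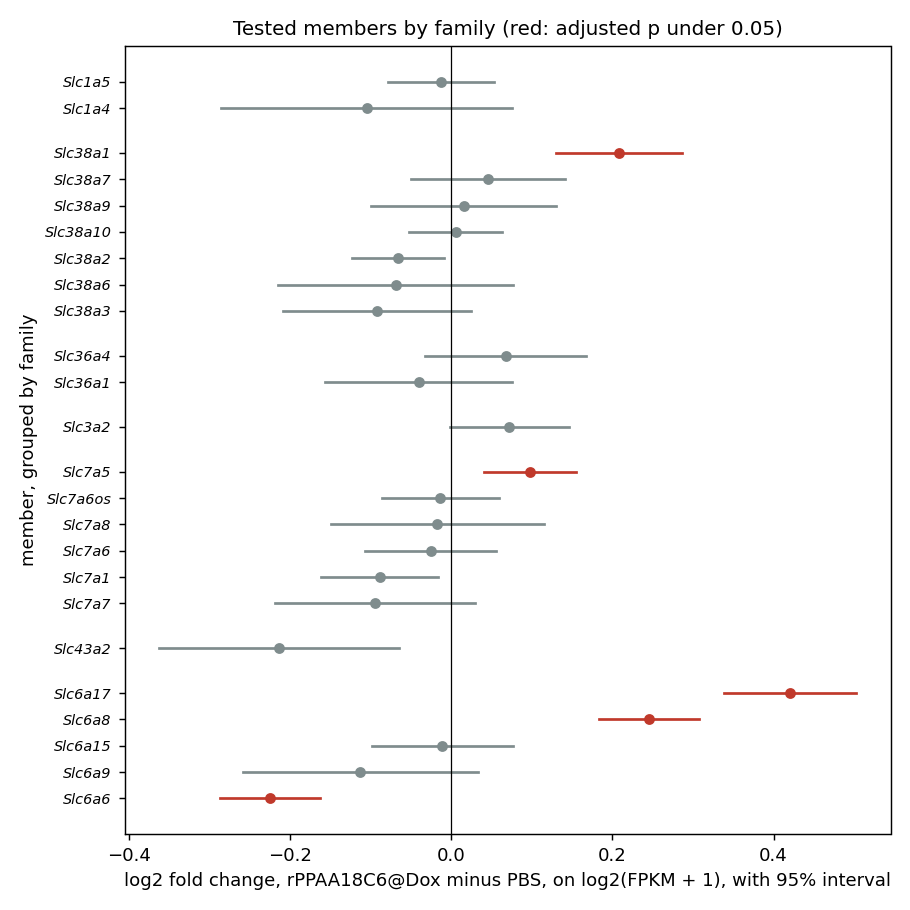
Each of the 24 tested members is a row, grouped by family, with its log2 fold change (rPPAA18C6@Dox minus PBS, on log2(FPKM + 1)) as a point and its 95% interval as a line, red where the adjusted p is under 0.05. Estimates of 18 of the 19 members that did not pass lie within 0.12 of 0, and Slc43a2 is the exception at -0.21.

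Slc7a5 passed and its partner Slc3a2 did not. Slc7a5, the light chain that exchanges leucine, phenylalanine and tyrosine for glutamine, was the most abundant transporter, at 109, 111 and 109 FPKM in the rPPAA18C6@Dox libraries, against 99.7, 104 and 103 FPKM in the PBS libraries. The groups did not overlap and the gene passed narrowly (log2 fold change 0.10, SE 0.0254, adjusted p = 0.0393). That call did not survive any of the 6 fits with 1 library left out (adjusted p = 0.0629 to 0.116), nor 4 of the other 7 alternatives. Slc3a2, the heavy chain that brings Slc7a5 to the cell surface, was at 24.4, 23.4 and 25.03 FPKM in the rPPAA18C6@Dox libraries, against 22.5, 23.4 and 23.3 FPKM in the PBS libraries. Its rPPAA18C6@Dox libraries were all above its PBS libraries, rPPAA18C6@Dox replicate 2 by little, and it did not pass (log2 fold change 0.07, SE 0.0332, adjusted p = 0.201; 95% interval -0.00 to 0.15). The FPKM of Slc7a5 over that of Slc3a2, a comparison per length, was 4.47, 4.75 and 4.34 in the rPPAA18C6@Dox libraries and 4.44, 4.46 and 4.44 in the PBS libraries. The rPPAA18C6@Dox values enclose the PBS values. With the light chains Slc7a6, Slc7a7 and Slc7a8 added to Slc7a5, the ratio to Slc3a2 was 4.99 ± 0.23 with rPPAA18C6@Dox and 4.95 ± 0.0168 with PBS.

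Slc43a2, which needs no heavy chain and lets leucine, phenylalanine and methionine pass down their gradient, was at 1.74, 1.77 and 1.59 FPKM in the rPPAA18C6@Dox libraries, against 1.92, 2.38 and 2.10 FPKM in the PBS libraries. Every rPPAA18C6@Dox library was below every PBS library, on 553 to 834 reads, and the difference missed the threshold (log2 fold change -0.21, SE 0.0667, adjusted p = 0.0727). It passed with voom on recovered reads (-0.32, adjusted p = 0.00278), and over its 12 alternatives the adjusted p was 0.00278 to 0.211. Exons of Slc43a2 share 9.18% of their bases with the antisense gene Gm45606. Its relative Slc43a1 stayed under the filter, at 0.776 ± 0.165 FPKM with rPPAA18C6@Dox and 0.954 ± 0.115 FPKM with PBS.

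The remaining light chains were low and did not pass. Slc7a6 and Slc7a7, which exchange cationic for neutral amino acids, were at 7.44 and 1.45 FPKM with rPPAA18C6@Dox and at 7.59 and 1.62 FPKM with PBS (adjusted p = 0.708 and 0.316, limma). Slc7a8, a second exchanger of large neutral amino acids, was at 2.38 ± 0.176 FPKM with rPPAA18C6@Dox and 2.42 ± 0.144 FPKM with PBS (adjusted p = 0.887, limma), with a sign that turns with quantile normalization and without rPPAA18C6@Dox replicate 3 or PBS replicate 2. Some exon bases of Slc7a7 are shared with Oxa1l on the other strand. Slc7a6os, the neighbour of Slc7a6 and no transporter, was at 23.6, 24.3 and 23.7 FPKM in the rPPAA18C6@Dox libraries, against 24.2, 24.8 and 23.2 FPKM in the PBS libraries. It did not pass (log2 fold change -0.01, SE 0.0325, adjusted p = 0.836), and the sign turns without PBS replicate 2.

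Slc7a1, the main carrier of arginine and lysine in most cells, was at 49.8, 49.8 and 48.9 FPKM in the rPPAA18C6@Dox libraries, against 50.3, 54.9 and 53.04 FPKM in the PBS libraries. The rPPAA18C6@Dox libraries all lay below the PBS libraries, by little against PBS replicate 1, and the gene did not pass (log2 fold change -0.09, SE 0.0327, adjusted p = 0.117). It passed with voom on recovered reads (adjusted p = 0.0231) and without PBS replicate 1 (-0.12, adjusted p = 0.042), and over its 13 alternatives the adjusted p was 0.0231 to 0.326.

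**Figure D4:**
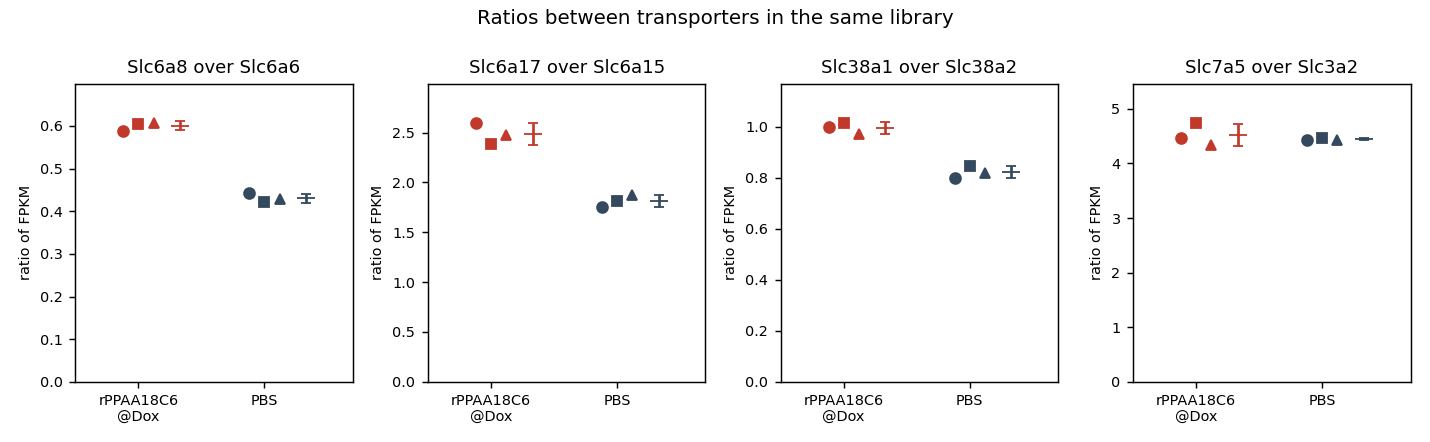
Each panel is the ratio of 2 transporters' FPKM within a library, on an axis from 0, with rPPAA18C6@Dox on the left (red) and PBS on the right (dark), and mean ± SD beside the points. Slc6a8 over Slc6a6, Slc6a17 over Slc6a15 and Slc38a1 over Slc38a2 do not overlap between groups, and Slc7a5 over Slc3a2 does. Slc6a8, Slc6a17 and Slc38a1 already did not overlap on their own, so these separations add no support. The ratios are given without a test.

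Slc36a1, Slc38a9, Slc38a7 and Slc36a4 did not pass. Slc36a1, which moves small neutral amino acids out of lysosomes with protons, was at 6.21, 5.94 and 5.55 FPKM in the rPPAA18C6@Dox libraries, against 6.46, 6.08 and 5.76 FPKM in the PBS libraries. The groups overlapped (log2 fold change -0.04, SE 0.052, adjusted p = 0.669; 95% interval -0.16 to 0.08). Slc38a9, the lysosomal arginine sensor of mTORC1, was at 2.04, 1.97 and 2.05 FPKM in the rPPAA18C6@Dox libraries, against 1.94, 2.05 and 1.97 FPKM in the PBS libraries. Both groups again overlapped (log2 fold change 0.02, SE 0.0513, adjusted p = 0.881; 95% interval -0.10 to 0.13). Slc38a7, a glutamine carrier of lysosomes, was at 16.4, 16.3 and 15.4 FPKM in the rPPAA18C6@Dox libraries, against 15.4, 16.4 and 14.7 FPKM in the PBS libraries, and it did not pass either (log2 fold change 0.05, SE 0.0429, adjusted p = 0.541). Slc36a4, a carrier of proline and tryptophan, was at 4.97 ± 0.229 FPKM with rPPAA18C6@Dox and 4.70 ± 0.0789 FPKM with PBS. Its groups did not overlap, but by little (4.77 FPKM in rPPAA18C6@Dox replicate 3, 4.75 FPKM in PBS replicate 1). The gene missed the threshold (log2 fold change 0.07, SE 0.0446, adjusted p = 0.374).

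The windows of Slc36a1 and Slc38a7 are printed because they are the only 2 tested members with CACGTG near a listed start, and because Mitf, a factor that reads this sequence, rose in the same libraries (56.4 ± 0.623 FPKM with rPPAA18C6@Dox and 45.5 ± 0.977 FPKM with PBS, log2 fold change 0.30, SE 0.0261, adjusted p = 8.86e-05). Capitals mark the matches, 2 of CACGTG in Slc36a1 and 1 each of TCATGTG and CACGTG in Slc38a7, and the matches do not overlap.
Slc36a1 (chr11:55204090-55204389, plus strand): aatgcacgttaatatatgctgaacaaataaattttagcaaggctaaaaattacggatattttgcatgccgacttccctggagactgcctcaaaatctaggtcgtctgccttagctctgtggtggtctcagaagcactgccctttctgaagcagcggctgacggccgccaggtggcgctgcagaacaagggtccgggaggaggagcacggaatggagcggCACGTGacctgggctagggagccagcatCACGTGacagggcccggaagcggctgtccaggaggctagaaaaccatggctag
Slc38a7 (chr8:95853442-95853741, minus strand): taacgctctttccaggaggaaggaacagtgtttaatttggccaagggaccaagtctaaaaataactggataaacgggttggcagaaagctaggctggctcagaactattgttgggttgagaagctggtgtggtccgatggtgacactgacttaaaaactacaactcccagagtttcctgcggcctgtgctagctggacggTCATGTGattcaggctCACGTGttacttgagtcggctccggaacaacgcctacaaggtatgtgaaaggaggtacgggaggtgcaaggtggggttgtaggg
Neither gene passed the test, and binding was not measured.

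In all, the groups did not overlap in 12 tested members, 6 with rPPAA18C6@Dox above PBS and 6 with rPPAA18C6@Dox below, or 50% of the 24, where the same held for 31.3% of all tested genes (12.6% above and 18.7% below). In the authors' deposited table, whose test is not stated, 8 of the 24 tested members (33.3%) had an unadjusted p-value under 0.05, as did 23.2% of all tested genes: the 5 above together with Slc3a2, Slc43a2 and Slc7a1. Besides Slc43a1, the other 7 transporters under the filter were Slc3a1 and Slc7a9, partners in cystine uptake in the kidney, Slc7a3, Slc7a4, Slc7a14, Slc36a2 and Slc6a7. Their single values ran from 0.00297 to 0.679 FPKM, on 1 to 96 reads per library, and no difference was tested at this depth. The opposite-strand genes Slc36a1os and Slc36a3os were also under the filter, at 0.0906 ± 0.015 FPKM with rPPAA18C6@Dox and 0.0849 ± 0.0959 FPKM with PBS and at 0.398 ± 0.336 FPKM with rPPAA18C6@Dox and 0.382 ± 0.0964 FPKM with PBS.

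In a list of partner and trafficking genes of these carriers, 3 of 15 tested rose and 1 fell, beside 4.66% higher and 5.26% lower over all tested genes. Nedd4l, a ubiquitin ligase that removes channels and carriers from the cell surface, was at 10.8, 10.4 and 10.5 FPKM in the rPPAA18C6@Dox libraries, against 6.47, 6.82 and 6.80 FPKM in the PBS libraries. It rose without overlap (log2 fold change 0.59, SE 0.0373, adjusted p = 1.24e-05), with an estimate above that of any tested member. Sgk1, a kinase that phosphorylates Nedd4l, was at 12.5, 12.3 and 13.05 FPKM in the rPPAA18C6@Dox libraries, against 10.6, 10.1 and 9.82 FPKM in the PBS libraries. It rose as well (log2 fold change 0.29, SE 0.0389, adjusted p = 0.00178). The adhesion receptor Cd44 rose (0.18) and the arrestin-domain protein Txnip fell (-0.16). Without PBS replicate 3, rPPAA18C6@Dox replicate 2 or rPPAA18C6@Dox replicate 3 the adjusted p of Txnip reached 0.0768, 0.0789 and 0.066 (limma). Its call held in 8 of 13 alternatives. The median estimate of this list was 0.03 on the log2 scale.

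Of 31 tested genes of amino acid response and sensing, 2 rose and none fell (9.93% of all tested genes changed in either direction), with a median estimate of 0.01. They were Mitf and Ddit3, which encodes CHOP (22.2 ± 2.20 FPKM with rPPAA18C6@Dox and 17.8 ± 1.49 FPKM with PBS, log2 fold change 0.30, SE 0.0723, adjusted p = 0.0283). Mitf is also counted among the melanoma markers above. Ddit3 passed in only 2 of the 6 fits with 1 library left out, those without rPPAA18C6@Dox replicate 2 and without PBS replicate 3 (highest adjusted p of the others 0.0988). Over all 13 alternatives Ddit3 passed in 7. Atf4, the factor that drives many transporter genes under amino acid shortage, was at 198 FPKM with rPPAA18C6@Dox and 190.3 FPKM with PBS (adjusted p = 0.309, limma). Its target Asns, asparagine synthetase, was at 51.1 ± 1.41 FPKM with rPPAA18C6@Dox and 49.4 ± 1.51 FPKM with PBS (log2 fold change 0.05, SE 0.0313, adjusted p = 0.383). Among 17 tested carriers of other families 1 rose and none fell, beside the same 9.93%, with a median of 0.03. That gene was Ctns, the lysosomal cystine exporter (10.1 ± 0.249 FPKM with rPPAA18C6@Dox and 8.88 ± 0.298 FPKM with PBS, log2 fold change 0.17, SE 0.0381, adjusted p = 0.0208), which no longer passed when rPPAA18C6@Dox replicate 2 (adjusted p = 0.0703) or PBS replicate 1 (0.0652) was left out. That list also holds carriers of nucleosides and nucleotides, such as Slc29a3.

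Of 32 tested enzymes that use imported amino acids, 4 rose and 3 fell, beside 4.66% higher and 5.26% lower over all tested genes, with a median of -0.01. Oat, which links ornithine to glutamate and proline, rose (151 ± 2.66 FPKM with rPPAA18C6@Dox and 136 ± 2.29 FPKM with PBS, log2 fold change 0.15, SE 0.0243, adjusted p = 0.00436). The aspartate aminotransferase Got1 (0.19, SE 0.0307) and tyrosinase, Tyr (0.14, SE 0.023), also rose. Tyr is also counted among the melanoma markers above. Mat2a, which turns methionine into S-adenosylmethionine, fell (123 ± 2.40 FPKM with rPPAA18C6@Dox and 138 ± 3.75 FPKM with PBS, log2 fold change -0.17, SE 0.0272, adjusted p = 0.00453). The serine hydroxymethyltransferases Shmt1 (-0.18, SE 0.0313) and Shmt2 (-0.10, SE 0.0229) fell too. Shmt2 did not pass without rPPAA18C6@Dox replicate 1 or any 1 of the PBS libraries (adjusted p up to 0.0894, limma). Its call held in 8 of 13 alternatives.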

How the data were processed

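The deposited table holds 1 value per gene and library and 1 p-value per gene for the authors' own comparison. The values were read as FPKM made by the authors, inferred from the deposited numbers, since the header names no unit. The deposited p-value column has no stated test. Per the submitters' processing notes, reads were placed on build mm9; aligner, counter, annotation, strand handling and filters: not given in the sources used here. The 3 columns not named for PBS were assigned to rPPAA18C6@Dox by elimination and number, and every sign rests on this. With 1 factor per gene, all 15726 genes gave whole reads within 0.01. These reads enter voom, the library totals, the chi-square between libraries, the simulated data and the read numbers given above. The main test does not use them. Tests used limma 3.58.1 (R 4.3.3), with a mean-variance trend, unpaired, checked on simulated data. The simulation had 1 fixed spread, and detection was required only for changes larger than those called among the members. That check therefore does not cover changes as small as theirs. Alternatives were a pseudocount of 0.1, no filter, a mean of at least 5 FPKM, quantile normalization, no trend, voom, a replicate block and leaving out each library. Members with a mean of at least 10 FPKM, those past the threshold and 7 preset ones are given in full, together with Slc43a2, Slc6a15 and Slc1a4, named after their values were seen. Of each pathway list, the genes past the threshold are named, or the 3 with the smallest p in each direction where there were over 6, with Atf4 and Asns added. Members and lists were chosen with earlier results of these data known.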

Additional observations from a re-analysis of the deposited data

How the results depend on the processing

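Slc6a17, Slc6a8, Slc38a1 and Slc6a6 passed in all 13 alternatives, and Slc7a5 in 3 of 13. Tested members called numbered 4 to 6 with 1 library left out (3 higher and 1 to 3 lower) and 7 with voom, of which 3 were lower. Over all genes the count was 681 with no filter (335 lower), 1636 with voom (933 lower) and 601 to 751 with 1 library left out (315 to 370 higher, 286 to 382 lower), beside 1060 (498 higher, 562 lower). The fits with 1 library left out hold fewer libraries, and the cause of these differences in count was not tested. Deviations of same-numbered libraries had correlations of -0.0024, 0.055 and -0.021, beside -0.062 to 0.060 for differently numbered ones. Whether libraries were handled in pairs cannot be told from these values. The replicate block gave 825 calls over all genes and 4 members, without Slc7a5. Signs turned for 5 members near 0. With quantile normalization these were Slc1a5 (0.00047), Slc38a10 (-0.011), Slc6a15 (0.0057) and Slc7a8 (0.0024). With 1 library left out, log2 fold changes ranged from -0.029 to 0.0069 for Slc1a5, from -0.0089 to 0.022 for Slc38a10, from -0.041 to 0.0056 for Slc6a15, from -0.047 to 0.027 for Slc7a8 and from -0.039 to 0.0080 for Slc7a6os. The median over all tested genes stayed between -0.016 and -0.0041.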
